A study of Mus musculus with 6 samples.

Results

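Skeletal muscle of LTKOFstL/L mice, whose hepatocytes lack Irs1 and Irs2, substrates of the insulin receptor, together with the follistatin gene Fst, was compared with muscle of Control mice across all measured genes. The LTKOFstL/L libraries and the Control libraries, 2 of each, make up 4 of the 6 RNA-seq libraries of the series and were chosen by their genotype labels. The other 2 come from LDKO mice, whose liver lacks Irs1 and Irs2 but keeps Fst. They enter the centring of each gene, the choice and grouping of tested genes by level, and the estimate of the spread between libraries. They do not enter the change itself, and their values are given for comparison. LDKO mice are Irs1L/L:Irs2L/L:CreAlb, with Cre driven by the albumin promoter, and LTKOFstL/L mice come from a cross of LDKO with FstL/L mice, in which loxP sites flank exons 2 to 5 of Fst. The Control libraries are named Loxp, and the header of the authors' deposited list for this comparison calls that group LoxP-Fst. Beyond these names, the sources used here do not say which of the floxed alleles these mice carry. All mice are labelled male. The labels name a high fat diet for every group, while the series text names chow from week 5 to week 16, so the diet is not settled. Whether the 2 libraries of a genotype came from separate animals is not stated in the labels, so p-values reflect the spread among libraries, which may be technical. An exact permutation test of 2 libraries against 2 cannot give a two-sided p below 0.333.

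Insulin acts in hepatocytes through Irs1 and Irs2, and the loss of both leaves the liver unable to answer insulin. Follistatin is a secreted protein made largely by the liver that binds activins and myostatin and so relieves the brake these ligands place on muscle growth through Smad2 and Smad3. In muscle itself, insulin and IGF signalling through Akt keeps the FoxO transcription factors out of the nucleus. FoxO factors turn on the ubiquitin ligases Fbxo32 (atrogin-1) and Trim63 (MuRF1), autophagy genes and Irs2, and the same genes respond to fasting and to glucocorticoids.

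Each value below is a log2 expression value centred on the median of that gene over the 6 libraries, so a value of 0 is the gene's own median and levels cannot be compared between genes. A change is the mean of the LTKOFstL/L libraries minus the mean of the Control libraries. Of 53342 genes in the table, 30413 were above the detection floor in at least 1 library, and 16835 reached a log2 level of 4 in at least 2 libraries and were tested with limma. The words rose and fell are used only of genes whose p, adjusted by Benjamini and Hochberg over the 16835 genes, was under 0.05. The depth of the libraries is unknown. A library held 23887 to 24492 genes above the floor, and the scaled value of a single read was 2.12 and 2.11 in LTKOFstL/L, 1.81 and 1.76 in LDKO and 2.12 and 2.03 in Control, which measures the scaling and not the depth.

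Genes of the exocrine pancreas, the digestive enzymes made by acinar cells, were present in the Control libraries and were set aside as carried-over tissue. Of 55 listed pancreas genes 37 were tested, and 36 were lower in LTKOFstL/L beyond the threshold. Chymotrypsinogen Ctrb1 stood at −4.74 and −4.74 in the LTKOFstL/L libraries, 1.60 and −1.60 in LDKO and 12.59 and 8.45 in Control. The median listed gene stood at −1.34 and −0.93 in LTKOFstL/L, 0.68 and −0.88 in LDKO and 11.85 and 7.75 in Control, so Control 1 held far more of these transcripts than Control 2. None of the 7 pancreatic islet genes reached the level for testing. Klk1, Pdia2 and Derl3 are not on the list and fell, with log2 changes of −9.69, −7.80 and −4.54, and for Klk1 and Pdia2 Control 1 exceeded Control 2 by more than 3 log2 units. These 3 genes are all made by pancreatic acinar cells, and their part in the pancreatic signal was not tested. Klk1 and Pdia2 missed the threshold without LTKOFstL/L 1 or LTKOFstL/L 2 (adjusted p 0.0597 to 0.124). Derl3 missed the threshold when any 1 of the 4 compared libraries was left out (adjusted p 0.101 to 0.337). Klk1, Pdia2 and Derl3 missed the threshold with the floor raised to a log2 level of 4 (adjusted p 0.0595 to 0.124). At that floor the change was −5.17 for Pdia2.

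Transcripts of skeletal muscle were present in all libraries. Of 18 muscle marker genes only the calsequestrin gene Casq1 passed, at 0.84 ± 0.15 (SE, adjusted p = 0.0444), and the median marker differed by 0.06. Casq1 missed the threshold when any 1 of the 4 compared libraries was left out (adjusted p 0.0977 to 0.279).  Adipocyte markers were uneven between libraries. Their median stood at 1.60 and 0.39 in LTKOFstL/L, −0.86 and 0.10 in LDKO and −0.19 and −0.16 in Control, and 12 of 14 had a higher mean in LTKOFstL/L although only resistin, Retn, passed. The median difference of these markers was 1.33, with 7 at an unadjusted limma p under 0.05. All 8 liver markers had a lower mean in LTKOFstL/L, with a median difference of −0.79 and none passing (5 at an unadjusted p under 0.05). All 11 Schwann cell markers had a lower mean as well, with a median of −0.40 and none passing (1 at an unadjusted p under 0.05). Macrophage, endothelial and red blood cell markers had median differences of −0.11, −0.09 and 0.21, and none of the 15, 12 and 6 tested genes passed, with 1, 1 and 0 at an unadjusted p under 0.05. The single skin marker tested, Krt10, read 0.04 and 3.75 in the LTKOFstL/L libraries, −0.64 and −0.04 in LDKO and −0.55 and 0.04 in Control, a change of 2.15 (adjusted p = 0.372) that rests on LTKOFstL/L 2. It was 0.29 without that library, and it passed without LTKOFstL/L 1 (adjusted p = 0.0332). The smooth muscle markers had a median of −0.02. In these whole-tissue libraries a different number of cells of a type and a different amount of RNA per cell cannot be told apart.

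**Figure D1:**
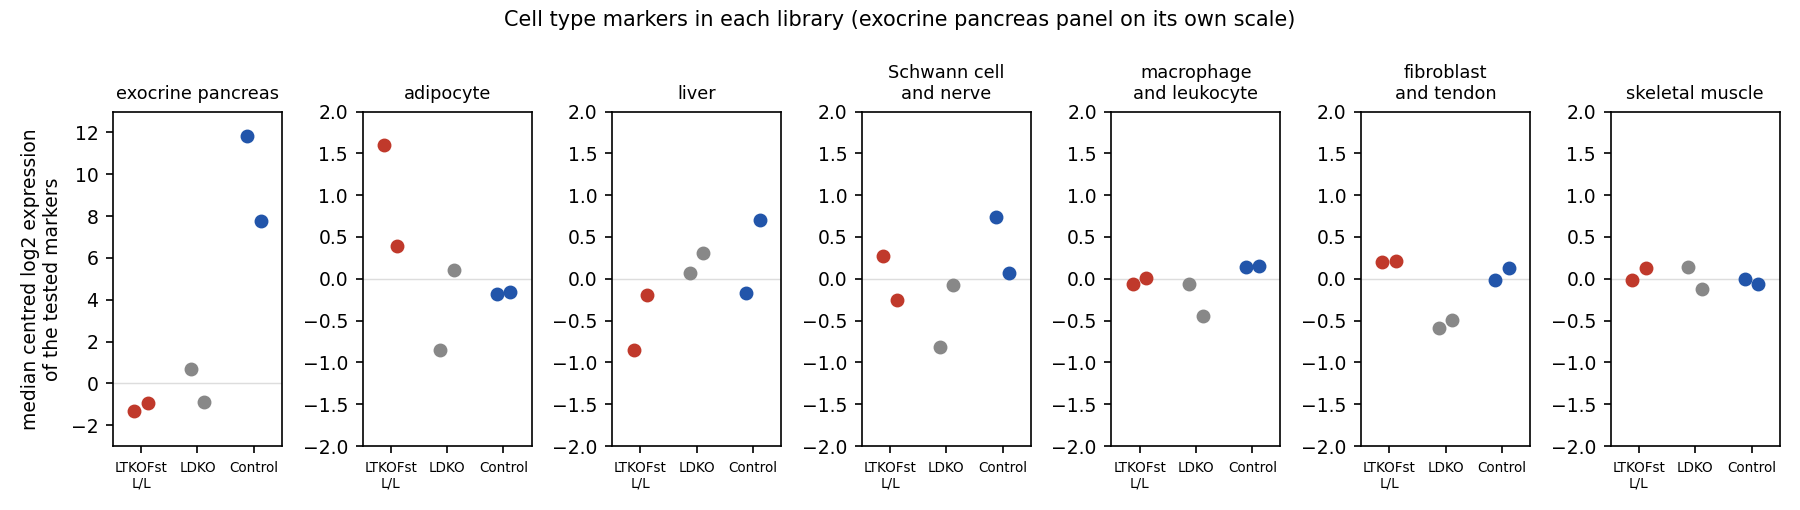
Median centred log2 value of the tested markers of a cell type (vertical axis, the exocrine pancreas panel on its own scale) in each library of LTKOFstL/L, LDKO and Control muscle, 1 panel per cell type and 1 point per library. The exocrine pancreas list stands at 11.85 and 7.75 in Control and near or below 0.68 elsewhere, while skeletal muscle markers stand close together in all libraries.

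With the pancreas list set aside, 329 of 16798 tested genes changed in LTKOFstL/L muscle, which is 1.96%, with 147 higher (0.875%) and 182 lower (1.08%). With the list counted, 365 of 16835 genes changed (2.17%), 147 higher (0.873%) and 218 lower (1.29%). At least a 2-fold change was seen in 117 of the 147 higher and 152 of the 182 lower genes, and the median absolute change of the 329 genes was 1.67 log2 units. The median change over all tested genes was 0.00 and 50.1% of them had a higher mean in LTKOFstL/L. In all 329 genes the libraries of the groups did not overlap, against 49.8% of all tested genes. The genes were called on these same libraries, so the lack of overlap adds no support. The gene lists below were chosen with earlier results of these data known. Their called shares therefore describe the lists and are no independent support for a change of a process. When the pancreas list was left out of the fit 291 of the 329 genes still passed. Of the 329 genes 27 also passed with any 1 of the 6 libraries left out, 9 of them higher and 18 lower. By library, 71 of all tested genes passed without LTKOFstL/L 1, 84 without LTKOFstL/L 2, 71 without Control 1 and 180 without Control 2, while 641 passed without either LDKO library. The variance prior and the level filter also set the calls. A single prior for all genes called 43 genes, among which the named genes are Aarsd1, Acot1, Acot2, Cish, Eif3s6-ps4, Foxo6, Plet1os, Ppp1r15a and Rab6b, and each other gene that the naming rule picks and that is described here missed the threshold (adjusted p 0.0501 to 0.165). With no level filter 93 genes passed, among them Aarsd1, Acot1, Acot2, Cish, Dbp, Ddit4, Eif3s6-ps4, Fbxo32, Foxo6, Gabarapl1, Ifi27l2a, Igfbp5, Jun, Maff, Myog, Nfil3, Ppp1r15a, Rab6b, Slc39a7, Tbc1d4, Trim63, Ulk1 and Vnn1, and the others described here by that rule missed the threshold (adjusted p 0.0557 to 0.277). A spline trend of the prior over the level called 350 genes, and raising the floor to a log2 level of 4 called 299. Losses under these settings are given beside the genes, and the fold changes are the same under every choice of prior.

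**Figure D2:**
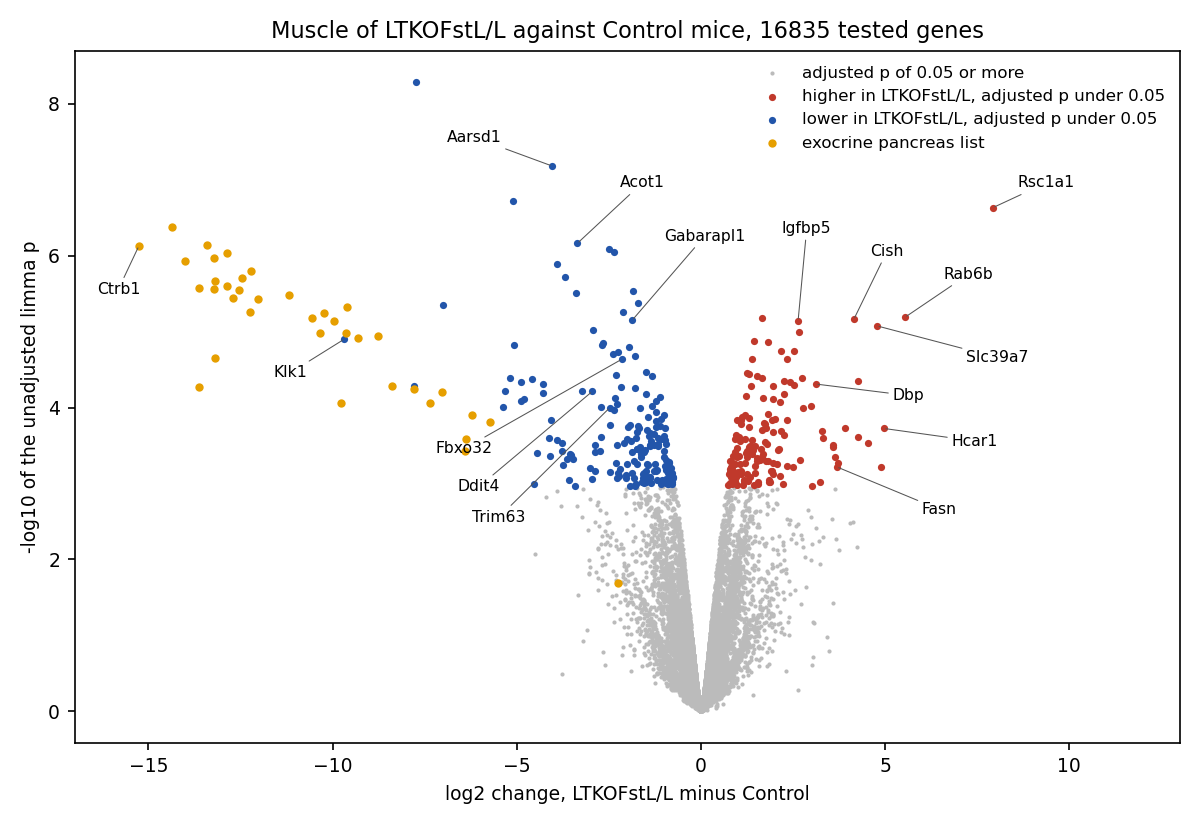
Change of each of 16835 tested genes (horizontal axis, log2, LTKOFstL/L minus Control) against −log10 of its unadjusted limma p (vertical axis), with genes that passed coloured by direction and the exocrine pancreas list in orange. Cish, Rab6b and Slc39a7 lie far to the right, Aarsd1 and Acot1 far to the left, and the pancreas list forms the tail of large falls.

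The genes deleted in the liver were looked at first in muscle, where Cre is not expected, so they give no check of the genotype labels. Irs1 (ENSMUSG00000055980, chromosome 1, 82233101 to 82291416, minus strand) on GRCm38, an adaptor that carries the insulin signal, read −0.14 and −0.41 in the LTKOFstL/L libraries, −0.60 and 0.16 in LDKO and 0.14 and 0.23 in Control. Its change of −0.46 ± 0.25 (SE, adjusted p = 0.455) did not pass. Irs2 (ENSMUSG00000038894, chromosome 8, 10984681 to 11008458, minus strand), the related adaptor that FoxO factors induce, read −1.42 and −1.48 in the LTKOFstL/L libraries, −0.69 and 0.69 in LDKO and 0.90 and 0.81 in Control. Irs2 was lower in both LTKOFstL/L libraries than in all the others and fell by 2.31 ± 0.39 (SE, adjusted p = 0.0366). Muscle Fst (ENSMUSG00000021765, chromosome 13, 114452290 to 114458951, minus strand) read 1.38 and 1.02 in the LTKOFstL/L libraries, −1.23 and −0.32 in LDKO and 0.00 and 0.00 in Control. Both LTKOFstL/L values of Fst were the highest of the 6, and the change of 1.20 ± 0.35 (SE, adjusted p = 0.161) did not pass. Irs2 missed the threshold when any 1 of the 4 compared libraries was left out (adjusted p 0.12 to 0.184). Irs2 missed the threshold under a spline trend of the variance prior (adjusted p 0.133).

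Among 24 ligases and proteolysis genes the muscle atrophy ligases Fbxo32 and Trim63 fell, a called share of 8.33% against 2.17% of all tested genes. Fbxo32, which marks proteins of the sarcomere and of protein synthesis for the proteasome, read −1.99 and −2.31 in the LTKOFstL/L libraries, 0.56 and 0.69 in LDKO and 0.30 and −0.30 in Control, a change of −2.15 ± 0.22 (SE, adjusted p = 0.00618), or 4.44-fold lower. Trim63, the ligase of thick filament proteins, read −2.45 and −2.51 in the LTKOFstL/L libraries, 0.82 and 0.71 in LDKO and 0.55 and −0.55 in Control and fell by 2.48 ± 0.32 (SE, adjusted p = 0.0151). The values of LTKOFstL/L were the lowest of the 6 libraries for both genes, and LDKO stood slightly above Control. The other 22 of 24 listed ligases and proteolysis genes did not pass, with a median of −0.01 over the list. None of 32 proteasome subunits passed (3 at an unadjusted p under 0.05), and their median was −0.09. Fbxo32 passed with each of the 6 libraries left out in turn. Trim63 missed the threshold without LTKOFstL/L 1 or LTKOFstL/L 2, and without either LDKO library (adjusted p 0.0534 to 0.0836). Fbxo32 and Trim63 missed the threshold under a spline trend of the variance prior (adjusted p 0.594 to 0.626). The gene Gm15943 overlaps Fbxo32 on the opposite strand, and the sources used here do not say whether reads were counted by strand.

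Autophagy genes showed 3 falls among 25 tested. Gabarapl1, which encodes a protein joined to the membrane of the growing autophagosome, read −1.86 and −1.87 in the LTKOFstL/L libraries, 0.17 and 0.42 in LDKO and 0.13 and −0.13 in Control and fell by 1.87 ± 0.16 (SE, adjusted p = 0.00303). Ulk1, the kinase that starts autophagy, read −1.30 and −1.30 in LTKOFstL/L, against 0.24 and −0.16 in Control, and fell by 1.34 ± 0.17 (SE, adjusted p = 0.0148). Depp1, a FoxO target that acts on autophagy, read −2.67 and −2.50 in LTKOFstL/L, against 1.13 and −0.56 in Control, and fell by 2.87 ± 0.50 (SE, adjusted p = 0.0416). In Depp1 the Control libraries lay far apart, while those of LTKOFstL/L lay close together. Gm44243 overlaps Gabarapl1 on the same strand. The list as a whole had a median of −0.18, with 17 of 25 means lower, and its called share of 12% compares with 2.17% of all tested genes. Gabarapl1 passed with each of the 6 libraries left out in turn. Ulk1 missed the threshold without Control 1, LTKOFstL/L 1 or LTKOFstL/L 2 (adjusted p 0.0979 to 0.104). Depp1 missed the threshold without Control 1, LTKOFstL/L 1 or LTKOFstL/L 2, and without either LDKO library (adjusted p 0.0766 to 0.181). Gabarapl1 and Depp1 missed the threshold under a spline trend of the variance prior (adjusted p 0.414 to 0.632).

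Among 19 FoxO factors and genes that insulin represses 2 fell and 1 rose, a called share of 15.8% against 2.17% of all tested genes. A lower mean was seen in 16, of which 15 had no overlap between groups, where 49.8% of all tested genes had none in either direction, and the median change was −0.81 against 0.00 over all tested genes. Besides Irs2, the cell cycle inhibitor Cdkn1b fell by 0.87 ± 0.15 (SE, adjusted p = 0.0366). Foxo6, a FoxO factor that stays largely in the nucleus, went the other way. It read 2.39 and 2.10 in the LTKOFstL/L libraries, −0.01 and 0.01 in LDKO and −0.35 and −0.46 in Control and rose by 2.66 ± 0.27 (SE, adjusted p = 0.00391), or 6.3-fold. The changes of Foxo1 and Foxo3, the main FoxO factors of muscle, were −0.92 (adjusted p = 0.495) and −0.79 (adjusted p = 0.133) and did not pass. Klf15, Gadd45a and Bcl6 had changes of −1.20, −1.23 and −0.90, with adjusted p of 0.0579, 0.0576 and 0.0552. Foxo6 passed with each of the 6 libraries left out in turn. Cdkn1b missed the threshold when any 1 of the 4 compared libraries was left out (adjusted p 0.166 to 0.24). 

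**Figure D3:**
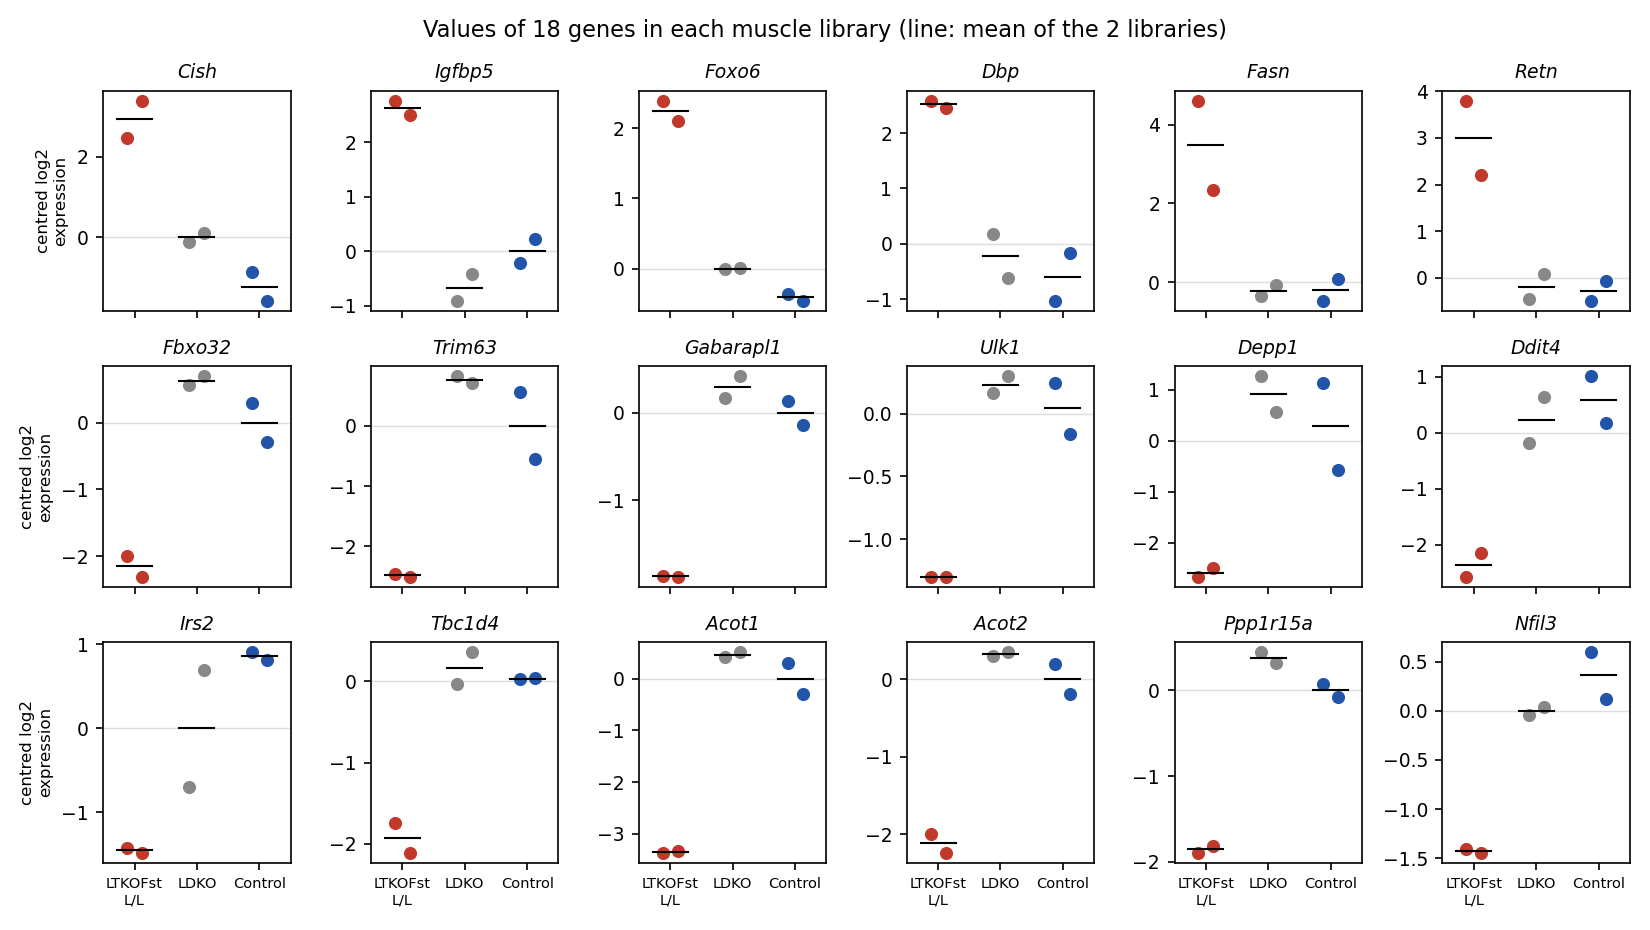
Centred log2 value (vertical axis, own scale in each panel) of single genes in the libraries of LTKOFstL/L, LDKO and Control muscle, 1 point per library with the group mean as a bar. LTKOFstL/L lies below Control for Fbxo32 (−1.99 and −2.31 against 0.30 and −0.30) and above it for Cish (2.47 and 3.39 against −0.86 and −1.59).

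The promoter of Trim63 is shown because it is a textbook FoxO target among the genes that fell. That of Fbxo32 was also looked up but was not found in the promoter set used. The sequence is RefSeq's on GRCm38.p6, chr4:134314870-134315169, plus strand, from 250 bases before to 50 bases after the annotated start.
Trim63: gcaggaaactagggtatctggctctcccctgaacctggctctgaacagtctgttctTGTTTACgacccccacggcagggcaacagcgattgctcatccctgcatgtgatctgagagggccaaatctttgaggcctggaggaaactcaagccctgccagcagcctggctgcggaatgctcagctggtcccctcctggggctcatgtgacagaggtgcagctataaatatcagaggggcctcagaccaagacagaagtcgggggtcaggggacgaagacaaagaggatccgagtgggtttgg
The capitals mark the single match to the FoxO motif GTAAACA, which lies on the opposite strand and reads TGTTTAC here. This motif, searched on both strands, is in 3.65% of 32851 promoter windows of the same length, and a match in letters does not show binding.

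The lists of mTORC1 brakes and of insulin signalling each held 1 called gene. Ddit4 (REDD1), which restrains mTORC1 under stress and glucocorticoids, read −2.57 and −2.14 in the LTKOFstL/L libraries, −0.17 and 0.64 in LDKO and 1.01 and 0.17 in Control and fell by 2.95 ± 0.35 (SE, adjusted p = 0.0113), or 7.72-fold. The other 17 of 18 genes on that list did not pass, and the amino acid transporter gene Slc7a5 had −1.36 (adjusted p = 0.0703). Tbc1d4 (AS160), the Akt substrate that holds glucose transporter vesicles inside the fibre, read −1.75 and −2.11 in the LTKOFstL/L libraries, −0.03 and 0.36 in LDKO and 0.03 and 0.04 in Control and fell by 1.96 ± 0.19 (SE, adjusted p = 0.00495). It was the single called gene of 25 on the list for insulin signalling and glucose transport, which had a median of 0.12. The insulin adaptor gene Irs2, which fell, was counted on the FoxO list and not on this one. CT025630.2 overlaps Tbc1d4 on the same strand. Hexokinase gene Hk2 read higher by 0.78 (adjusted p = 0.0703). Tbc1d4 passed with each of the 6 libraries left out in turn. Ddit4 missed the threshold without Control 1 or LTKOFstL/L 1 (adjusted p 0.0649 to 0.0668). Ddit4 and Tbc1d4 missed the threshold under a spline trend of the variance prior (adjusted p 0.531 to 0.577).

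Among the IGFs and their binding proteins Igfbp5 rose, and the other 10 of 11 did not pass. Igfbp5, a binding protein that muscle secretes and that modulates IGF action, read 2.77 and 2.51 in the LTKOFstL/L libraries, −0.92 and −0.42 in LDKO and −0.22 and 0.22 in Control. Both LTKOFstL/L values were more than 2 log2 units above every other library. The change was 2.64 ± 0.23 (SE, adjusted p = 0.00303), or 6.23-fold. Igf1 itself had a change of 0.81 (adjusted p = 0.0684). Igfbp5 passed with each of the 6 libraries left out in turn. 

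Cish, the feedback inhibitor that growth hormone and other cytokines induce through Stat5, rose more than any other gene of its pathway. Cish (ENSMUSG00000032578, chromosome 9, 107296026 to 107302784, plus strand) read 2.47 and 3.39 in the LTKOFstL/L libraries, −0.12 and 0.12 in LDKO and −0.86 and −1.59 in Control. Both LTKOFstL/L values of Cish stood well above all 4 other libraries, and Control was the lowest group. The change was 4.15 ± 0.40 (SE, adjusted p = 0.00303), or 17.8-fold. Stat5b, the transcription factor upstream, fell by 0.94 ± 0.17 (SE, adjusted p = 0.0409). The other 16 of 18 genes on the list did not pass, and Socs2, another Stat5 target, had a change of 1.28 (adjusted p = 0.147). Cish passed with each of the 6 libraries left out in turn. Stat5b missed the threshold when any 1 of the 4 compared libraries was left out (adjusted p 0.133 to 0.268). Stat5b missed the threshold under a spline trend of the variance prior (adjusted p 0.159).

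The promoter of Cish is shown because it belongs to one of the largest rises. RefSeq places it on GRCm38.p6 at chr9:107296409-107296708, plus strand, with the same 300 bases around the start.
Cish: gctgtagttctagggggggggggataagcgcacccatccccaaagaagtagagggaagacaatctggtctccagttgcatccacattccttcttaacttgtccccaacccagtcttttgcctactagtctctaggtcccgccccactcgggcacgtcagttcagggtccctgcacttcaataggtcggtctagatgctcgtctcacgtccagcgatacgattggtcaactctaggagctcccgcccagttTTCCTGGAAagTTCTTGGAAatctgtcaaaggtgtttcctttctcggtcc
The capitals mark matches to TTCNNNGAA, the first TTCCTGGAA at bases 251 to 259 and the second TTCTTGGAA at bases 262 to 270 of the window. At least 1 match is found in 8.3% of the 32851 windows, and the share of windows with a pair was not counted.

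Targets of the PPAR factors, which raise fatty acid use when fat is the main fuel, fell in 7 of 25 cases and rose in none, which is 28% of the list against 2.17% of all tested genes. As for the other lists, this share is a description, since the lists were chosen with earlier results known. The list median was −0.38. Acot1 (ENSMUSG00000072949, chromosome 12, 84009490 to 84018371, plus strand), a cytosolic thioesterase that splits fatty acyl-CoA, read −3.37 and −3.34 in the LTKOFstL/L libraries, 0.41 and 0.52 in LDKO and 0.30 and −0.30 in Control. The LTKOFstL/L libraries coincided far below the other 4, which lay close together. The change was −3.35 ± 0.21 (SE, adjusted p = 0.0014), or 10.2-fold lower. Its mitochondrial paralogue Acot2, from which reads could be shared, read −1.99 and −2.24 in LTKOFstL/L, against 0.19 and −0.19 in Control, and fell by 2.12 ± 0.18 (SE, adjusted p = 0.00285). Vnn1, a pantetheinase, fell by 3.22 (adjusted p = 0.0113). The fatty acid hydroxylases Cyp4a14 and Cyp4a10, close paralogues whose reads could be split between them, fell, with log2 changes of −4.45 and −2.74 (adjusted p = 0.0306 and 0.03). Cyp4a10 read −0.30 and −1.20 in the LTKOFstL/L libraries, 0.30 and −0.77 in LDKO and 2.29 and 1.69 in Control, so LDKO lay near LTKOFstL/L. Acot1 and Acot2 passed with each of the 6 libraries left out in turn. Cyp4a14 and Cyp4a10 missed the threshold when any 1 of the 4 compared libraries was left out (adjusted p 0.0581 to 0.243). Vnn1 missed the threshold without Control 1 or LTKOFstL/L 1 (adjusted p 0.0566 to 0.0771). Acot1 and Acot2 missed the threshold under a spline trend of the variance prior (adjusted p 0.559 to 0.737). Cyp4a14 missed the threshold with a level filter of 8 (adjusted p 0.0519).

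None of 21 genes of mitochondrial beta-oxidation passed (2 at an unadjusted p under 0.05), with a median of −0.09, and the malonyl-CoA decarboxylase gene Mlycd had the smallest adjusted p, with a change of −0.74 (adjusted p = 0.0715). None of 37 oxidative phosphorylation genes passed (1 at an unadjusted p under 0.05), although 32 had a higher mean. Their median was 0.12 and their range −0.17 to 0.47. None of 26 genes of glycolysis and pyruvate use and none of 17 glycogen genes passed, with 4 and 1 at an unadjusted p under 0.05 and medians of 0.11 and 0.03. Among 22 regulators of energy use only Nmrk2 passed, the muscle nicotinamide riboside kinase of NAD synthesis. It read 2.33 and 2.34 in the LTKOFstL/L libraries, −0.86 and −1.49 in LDKO and −0.64 and 0.64 in Control and rose by 2.33 ± 0.40 (SE, adjusted p = 0.0382). Nmrk2 missed the threshold without Control 1, LTKOFstL/L 1 or LTKOFstL/L 2, and without either LDKO library (adjusted p 0.0979 to 0.161). Nmrk2 missed the threshold under a spline trend of the variance prior (adjusted p 0.138).

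Of 29 fatty acid synthesis genes 3 rose and none fell, which is 10.3% of the list against 0.873% higher among all tested genes, and the adipocyte markers were higher in the same libraries. A higher mean was seen in 23 of the 29, with a median of 0.67. Fasn, the fatty acid synthase, read 4.62 and 2.35 in the LTKOFstL/L libraries, −0.36 and −0.08 in LDKO and −0.49 and 0.08 in Control and rose by 3.69 ± 0.64 (SE, adjusted p = 0.0385). The LTKOFstL/L libraries differed by more than 2 log2 units in Fasn, and library 1 was the higher one, as it was for the adipocyte markers at 1.60 against 0.39. Thrsp, a thyroid hormone responsive gene of lipogenic tissues, rose by 1.97 ± 0.35 (SE, adjusted p = 0.0431), and Pnpla3, a lipase-like protein of lipid droplets, by 2.51 ± 0.45 (SE, adjusted p = 0.0385). Retn read 3.80 and 2.21 in the LTKOFstL/L libraries, −0.45 and 0.07 in LDKO and −0.50 and −0.07 in Control and rose by 3.29 ± 0.50 (SE, adjusted p = 0.0226), and adiponectin, Adipoq, had 2.07 (adjusted p = 0.0521). The part of fat tissue in these rises was not tested. None of 17 cholesterol synthesis genes passed (3 at an unadjusted p under 0.05), with a median of 0.39. Pnpla3 and Retn missed the threshold without Control 1, Control 2 or LTKOFstL/L 1 (adjusted p 0.0534 to 0.181). Fasn missed the threshold without Control 1 or Control 2, and without either LDKO library (adjusted p 0.102 to 0.243). Thrsp missed the threshold without Control 1, Control 2 or LTKOFstL/L 1, and without either LDKO library (adjusted p 0.0842 to 0.225). Fasn missed the threshold under a spline trend of the variance prior (adjusted p 0.181).

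Hcar1, Hcar2, Arxes2 and Arxes1 were among the 12 largest rises. Hcar1, a lactate receptor, read 4.64 and 3.16 in the LTKOFstL/L libraries, −1.22 and 0.74 in LDKO and −0.74 and −1.38 in Control and rose by 4.96 ± 0.84 (SE, adjusted p = 0.0215). Hcar2, the neighbouring receptor for the ketone body hydroxybutyrate, read 2.95 and 2.36 in LTKOFstL/L, against −0.26 and −1.90 in Control, and rose by 3.73 ± 0.73 (SE, adjusted p = 0.0366). Arxes2 and Arxes1, near-identical genes of the X chromosome described in fat cells, rose by 4.54 and 3.63 (adjusted p = 0.0275 and 0.0329). Reads could be shared within each of these pairs. In each of these genes LTKOFstL/L 1 was higher than LTKOFstL/L 2, as it was for the median adipocyte marker at 1.60 against 0.39. Whether fat tissue in the samples had a part here was not tested. Hcar1, Hcar2 and Arxes1 missed the threshold when any 1 of the 4 compared libraries was left out (adjusted p 0.0772 to 0.24). Arxes2 missed the threshold without Control 1, Control 2 or LTKOFstL/L 1 (adjusted p 0.139 to 0.185). Hcar2 and Arxes1 missed the threshold under a spline trend of the variance prior (adjusted p 0.0741 to 0.0984). Hcar1 missed the threshold with a level filter of 8 (adjusted p 0.205). Hcar1, Hcar2, Arxes2 and Arxes1 missed the threshold with the floor raised to a log2 level of 4 (adjusted p 0.0502 to 0.0626). At that floor the change was 1.73 for Hcar2.

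Genes induced by glucocorticoids fell in 5 of 17 cases (29.4%, against 1.29% lower among all tested genes), with a median of −0.72. None rose, although 3 of the 17 had a higher mean in LTKOFstL/L. Cebpd, a transcription factor of the acute response, fell by 1.87 ± 0.33 (SE, adjusted p = 0.0423), and its relative Cebpb fell by 0.94 ± 0.16 (SE, adjusted p = 0.0403). Cdkn1a (p21), a brake on the cell cycle, fell by 1.87 ± 0.30 (SE, adjusted p = 0.0304). Errfi1, a feedback inhibitor of the EGF receptor, fell by 1.39 ± 0.21 (SE, adjusted p = 0.028), and Tsc22d3 (GILZ) fell by 1.09 ± 0.16 (SE, adjusted p = 0.0255). Tsc22d3 read −0.37 and −0.54 in the LTKOFstL/L libraries, −0.06 and 0.06 in LDKO and 0.78 and 0.48 in Control, so the groups lay apart by little more than 1 log2 unit. Clock gene Per1 and the transcription factor gene Zbtb16, which also answer to glucocorticoids, had changes of −0.71 (adjusted p = 0.0615) and −0.72 (adjusted p = 0.0734). Cebpb, Errfi1 and Tsc22d3 missed the threshold when any 1 of the 4 compared libraries was left out (adjusted p 0.0536 to 0.24). Cebpd and Cdkn1a missed the threshold without Control 1, LTKOFstL/L 1 or LTKOFstL/L 2, and without either LDKO library (adjusted p 0.0543 to 0.203). Cebpd, Cebpb and Cdkn1a missed the threshold under a spline trend of the variance prior (adjusted p 0.102 to 0.529).

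Immediate early genes, which cells switch on within minutes of a stimulus or of handling, fell in 7 of 24 cases (29.2%, against 1.29% lower among all tested genes). The median of the list was −0.84, and 20 of 24 means were lower. Maff, a small Maf factor, read −1.53 and −2.08 in the LTKOFstL/L libraries, −0.32 and 0.32 in LDKO and 0.95 and 0.79 in Control and fell by 2.67 ± 0.26 (SE, adjusted p = 0.00479). Its relative Mafk fell by 1.15 ± 0.18 (SE, adjusted p = 0.0278). The AP-1 members Fosl2 and Jun fell, with log2 changes of −2.10 and −1.45 (adjusted p = 0.0275 and 0.0185). Btg2, an antiproliferative gene, fell by 2.27 ± 0.41 (SE, adjusted p = 0.0447), and the orphan nuclear receptor Nr4a1 fell by 1.47 ± 0.25 (SE, adjusted p = 0.0366). Nr4a1 read −0.14 and −0.50 in the LTKOFstL/L libraries, −0.34 and 0.14 in LDKO and 0.88 and 1.41 in Control, so LDKO lay near LTKOFstL/L. Egr1 had a higher mean in LTKOFstL/L, with a change of 1.95 (adjusted p = 0.0728). None of 17 heat shock genes passed (1 at an unadjusted p under 0.05), and their median was −0.06. Maff passed with each of the 6 libraries left out in turn. Mafk, Fosl2, Jun, Btg2 and Nr4a1 missed the threshold when any 1 of the 4 compared libraries was left out (adjusted p 0.0586 to 0.204). Maff, Jun and Btg2 missed the threshold under a spline trend of the variance prior (adjusted p 0.0767 to 0.357).

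Clock genes moved in both directions. Of 19 tested, 18 showed no overlap between groups, 11 higher and 7 lower, where 49.8% of all tested genes did so, and 4 passed, which is 21.1% against 2.17%. Dbp, an output activator of the clock, read 2.59 and 2.45 in the LTKOFstL/L libraries, 0.17 and −0.61 in LDKO and −1.04 and −0.17 in Control and rose by 3.13 ± 0.39 (SE, adjusted p = 0.0105), or 8.73-fold. Nfil3, the repressor that binds the same promoter elements as Dbp, read −1.40 and −1.44 in the LTKOFstL/L libraries, −0.04 and 0.04 in LDKO and 0.60 and 0.12 in Control and fell by 1.78 ± 0.18 (SE, adjusted p = 0.00602). Bhlhe41, a repressor of the clock's positive arm, rose by 1.65 ± 0.24 (SE, adjusted p = 0.0225). Arntl (Bmal1), the positive arm itself, had a change of −1.33 (adjusted p = 0.0978). The labels give no time of collection. Nfil3 passed with each of the 6 libraries left out in turn. Dbp and Bhlhe41 missed the threshold without Control 1, LTKOFstL/L 1 or LTKOFstL/L 2 (adjusted p 0.0581 to 0.123). Nfil3 missed the threshold under a spline trend of the variance prior (adjusted p 0.189).

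The promoter of Dbp is shown as the clock output with the largest change. RefSeq places it on GRCm38.p6 at chr7:45704997-45705296, plus strand, over the same 300 bases.
Dbp: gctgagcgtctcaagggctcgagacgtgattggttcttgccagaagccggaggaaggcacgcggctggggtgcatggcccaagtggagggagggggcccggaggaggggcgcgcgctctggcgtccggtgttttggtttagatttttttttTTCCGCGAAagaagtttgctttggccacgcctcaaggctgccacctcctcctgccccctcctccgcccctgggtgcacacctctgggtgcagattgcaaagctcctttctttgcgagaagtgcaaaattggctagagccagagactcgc
The capitals mark TTCCGCGAA, the single match to TTCNNNGAA. The window holds no match to CACGTG, the canonical E-box, which is found in 7.15% of all windows. Sphk2 overlaps Dbp on the opposite strand.

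None of the genes of activin, myostatin and BMP signalling, which include the ligands that follistatin binds, passed in limma, and 8 had an unadjusted p under 0.05, as did 2570 of all 16835 tested genes. Of 41 tested genes 18 had a higher and 23 a lower mean, with a median of −0.08 and a range of −1.45 to 1.30. The groups did not overlap in 20 of the 41, against 49.8% of all tested genes. Gdf11, a ligand close to myostatin, had a change of 1.14 (adjusted p = 0.0755), and the myostatin gene Mstn 0.60 (adjusted p = 0.263). Ccn2, a Smad target of matrix growth, had −0.66 (adjusted p = 0.106). A missed threshold with 2 libraries a group does not show that the pathway was alike.

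No slow or fast fibre gene passed, while 3 developmental genes did. The 14 slow fibre and 11 fast fibre genes had medians of 0.11 and 0.24, with 2 and 4 genes at an unadjusted p under 0.05, and Sypl2 came nearest at 0.75 (adjusted p = 0.0544). Myogenin, Myog, the factor that drives the differentiation of muscle precursors and rises on denervation, read −1.23 and −1.24 in the LTKOFstL/L libraries, −0.50 and 0.50 in LDKO and 1.25 and 1.67 in Control and fell by 2.70 ± 0.37 (SE, adjusted p = 0.015). Myf6, which is the myogenic factor most abundant in grown fibres, fell by 0.99 ± 0.17 (SE, adjusted p = 0.0383). Myh3, a myosin heavy chain of embryonic fibres, rose by 1.07 ± 0.18 (SE, adjusted p = 0.0366). It read −0.04 and 0.04 in the LTKOFstL/L libraries, 0.97 and 0.66 in LDKO and −0.89 and −1.25 in Control. LDKO thus stood further above Control than LTKOFstL/L did. The other 22 of 25 genes on the developmental list did not pass, and its called share of 12% compares with 2.17% of all tested genes. Myog, Myf6 and Myh3 missed the threshold when any 1 of the 4 compared libraries was left out (adjusted p 0.0606 to 0.24). Myh3 missed the threshold under a spline trend of the variance prior (adjusted p 0.314).

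Collagen and matrix genes had higher means in LTKOFstL/L in 22 of 32 cases, with a median of 0.55, and 3 passed, which is 9.38% against 2.17% of all tested genes. Col3a1, the fibrillar collagen of loose connective tissue, rose by 1.79 ± 0.28 (SE, adjusted p = 0.0278). Col5a1 and the matrix glycoprotein gene Sparc rose by 1.26 and 0.87 (adjusted p = 0.0428 and 0.0329). Col1a1, on the fibroblast list, rose by 1.45 ± 0.27 (SE, adjusted p = 0.0487) and Smtn, of smooth muscle, by 0.98 ± 0.19 (SE, adjusted p = 0.0487), and both missed the threshold when the pancreas list was left out of the fit, at an adjusted p of 0.0533. The fibroblast and tendon list had a median of 0.29, and its part in the collagen rises was not tested. Col3a1, Col5a1, Sparc, Col1a1 and Smtn missed the threshold when any 1 of the 4 compared libraries was left out (adjusted p 0.0581 to 0.248). Col1a1 and Smtn missed the threshold with the floor raised to a log2 level of 4 (adjusted p 0.0524).

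**Figure D4:**
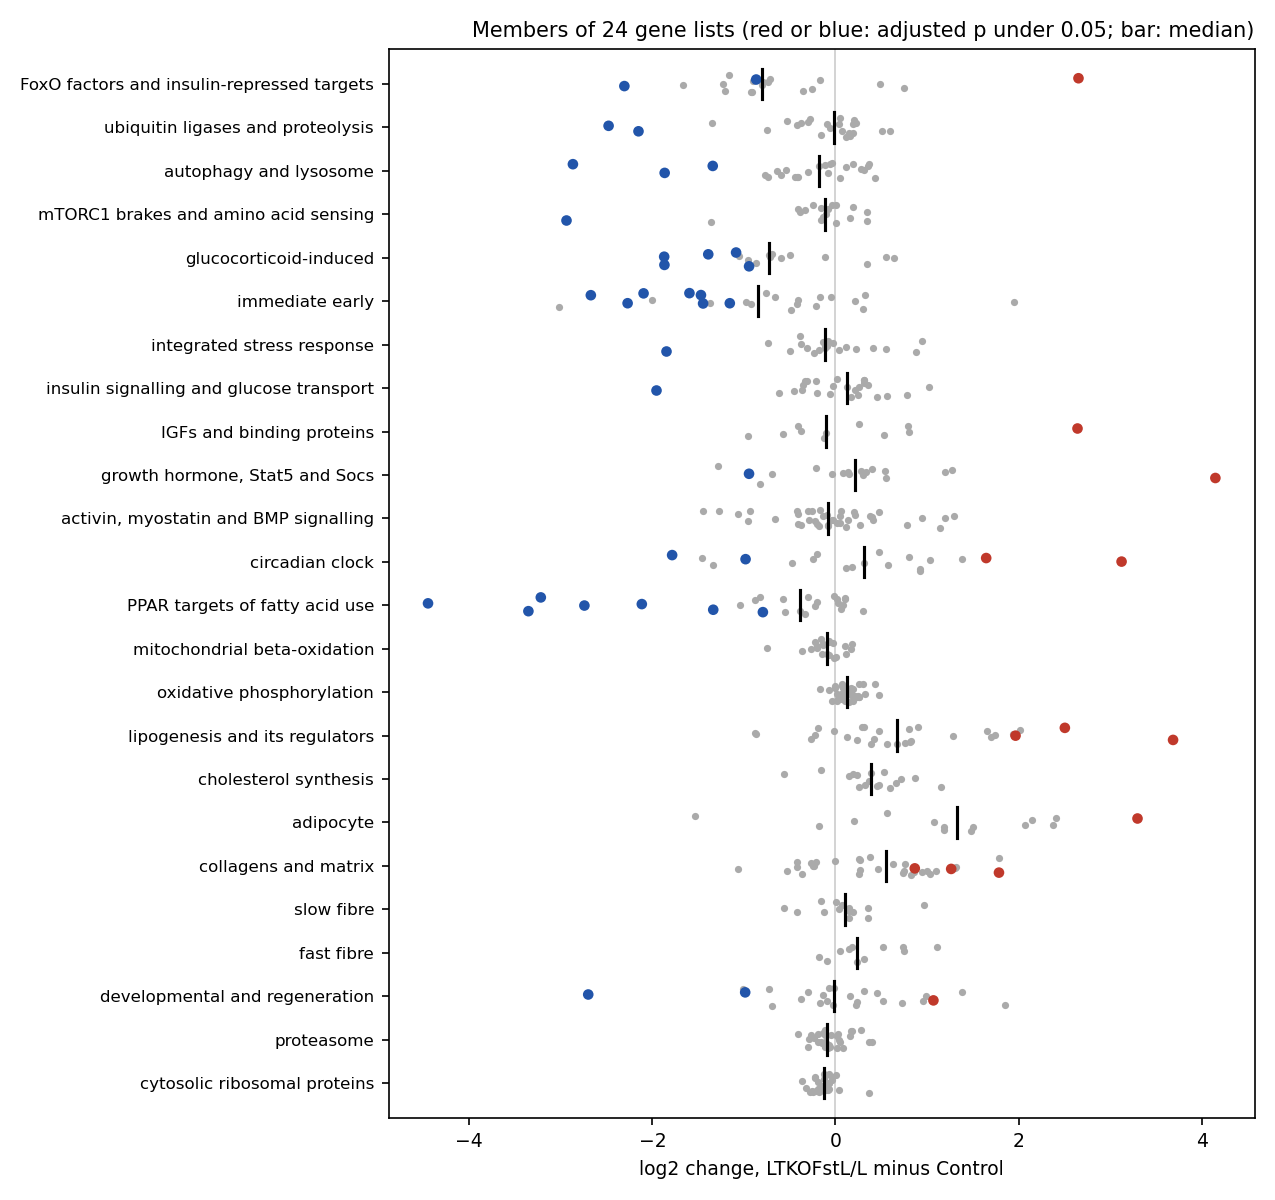
Change of every tested gene (horizontal axis, log2, LTKOFstL/L minus Control) in 24 gene lists, 1 row per list, with genes that passed in red (higher) or blue (lower), the others in grey and the list median as a black bar. PPAR targets, immediate early genes and glucocorticoid-induced genes hold 7, 7 and 5 called falls, while the activin and proteasome lists hold none.

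Other listed processes held at most 1 called gene. Among 21 genes of the integrated stress response Ppp1r15a (GADD34), the phosphatase subunit that ends it, read −1.89 and −1.81 in the LTKOFstL/L libraries, 0.45 and 0.32 in LDKO and 0.07 and −0.07 in Control and fell by 1.85 ± 0.14 (SE, adjusted p = 0.00216), while Ddit3 had 0.95 (adjusted p = 0.155). Tulp2 overlaps Ppp1r15a on the opposite strand. Ifi27l2a was the 1 riser among 25 interferon-inducible genes, at 2.75 ± 0.31 (SE, adjusted p = 0.00955). None of 11 polyamine genes passed (4 at an unadjusted p under 0.05), and Amd1 had 0.88 (adjusted p = 0.0698). None of 32 cytosolic ribosomal protein genes passed (0 at an unadjusted p under 0.05), with a median of −0.12. Ppp1r15a passed with each of the 6 libraries left out in turn. Ifi27l2a missed the threshold without Control 1 (adjusted p 0.0743). Ppp1r15a missed the threshold under a spline trend of the variance prior (adjusted p 0.43).

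Among zinc transporters and metallothioneins only Slc39a7 passed, which encodes ZIP7, the carrier that releases zinc from the endoplasmic reticulum. Slc39a7 (ENSMUSG00000024327, chromosome 17, 34028269 to 34031682, minus strand) read 4.03 and 4.18 in the LTKOFstL/L libraries, −1.02 and 0.21 in LDKO and −1.15 and −0.21 in Control, and the other 16 of 17 genes of the list did not pass. Every LTKOFstL/L value stood about 4 log2 units above the gene's median. The change was 4.78 ± 0.47 (SE, adjusted p = 0.00345), or 27.5-fold. Gm20427 overlaps Slc39a7 on the same strand, so the reads of these genes cannot be told apart. Slc39a7 passed with each of the 6 libraries left out in turn. 

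The largest rise by the naming rule was that of Rab6b, a small GTPase of Golgi traffic known mainly from neurons. Rab6b (ENSMUSG00000032549, chromosome 9, 103111787 to 103185276, plus strand) read 4.78 and 5.14 in the LTKOFstL/L libraries, −0.19 and 0.19 in LDKO and −0.55 and −0.61 in Control. Both LTKOFstL/L values stood far above the other 4 libraries, which lay close together. The change was 5.54 ± 0.62 (SE, adjusted p = 0.00303), or 46.5-fold. The recovered median level of Rab6b was 3.3, under the log2 level of 4 set for testing. With the floor raised to 4 its change was 4.26. The unannotated AC174780.1, the teneurin cell adhesion gene Tenm4 and Rtkn2 were also among the 12 largest rises, at 3.58, 3.31 and 3.24 (adjusted p = 0.0286, 0.0255 and 0.0473). Rab6b passed with each of the 6 libraries left out in turn. AC174780.1 and Rtkn2 missed the threshold when any 1 of the 4 compared libraries was left out (adjusted p 0.0907 to 0.277). Tenm4 missed the threshold without Control 1, Control 2 or LTKOFstL/L 1 (adjusted p 0.0893 to 0.0907). AC174780.1 and Rtkn2 missed the threshold under a spline trend of the variance prior (adjusted p 0.111 to 0.158). AC174780.1 missed the threshold with the floor raised to a log2 level of 4 (adjusted p 0.0837). At that floor the change was 1.66 for AC174780.1.

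Among the 12 largest falls by the naming rule, which leaves out clone-named genes such as Gm10327, Fam131c came after Klk1 and Pdia2. It read −4.24 and −6.32 in the LTKOFstL/L libraries, 1.41 and −0.02 in LDKO and 0.18 and 0.02 in Control and fell by 5.38 ± 0.84 (SE, adjusted p = 0.015). Aarsd1, whose protein clears wrongly charged alanine transfer RNA, read −3.93 and −3.94 in the LTKOFstL/L libraries, 0.42 and 0.00 in LDKO and 0.20 and 0.00 in Control. The LTKOFstL/L libraries nearly coincided, and the gene fell by 4.04 ± 0.18 (SE, adjusted p = 0.000555), or 16.4-fold. Gm27029 overlaps Aarsd1 on the same strand. The noncoding Plet1os and AC165164.2, the imprinted deubiquitinase gene Usp29, the pseudogene Eif3s6-ps4, the inflammasome sensor gene Naip2 and the zinc finger gene Zfp993 fell, with log2 changes of −4.88, −4.81, −3.92, −3.92, −3.77 and −4.09, with adjusted p from 0.00156 for Eif3s6-ps4 to 0.0329 for Zfp993. Aarsd1 and Eif3s6-ps4 passed with each of the 6 libraries left out in turn. Plet1os and Fam131c missed the threshold without Control 1, Control 2 or LTKOFstL/L 2 (adjusted p 0.0692 to 0.156). AC165164.2 and Usp29 missed the threshold without Control 1, LTKOFstL/L 1 or LTKOFstL/L 2 (adjusted p 0.0842 to 0.178). Naip2 and Zfp993 missed the threshold when any 1 of the 4 compared libraries was left out (adjusted p 0.0946 to 0.24). Aarsd1 missed the threshold under a spline trend of the variance prior (adjusted p 0.351). AC165164.2 missed the threshold with a level filter of 8 (adjusted p 0.224). Usp29, Naip2 and Zfp993 missed the threshold with the floor raised to a log2 level of 4 (adjusted p 0.151 to 0.405). At that floor the change was −3.25 for Fam131c, −1.01 for Usp29, −0.74 for Naip2 and −2.19 for Zfp993. Genes on the same strand also overlap Naip2 (Gm18413) and Usp29 (among them Gm44862).

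Of the 329 genes 263 are protein coding, 18 are processed pseudogenes, 14 are lincRNAs and 13 are antisense genes. Processed pseudogenes share sequence with their parent genes, so their counts are uncertain. The pseudogene Gm10327, named after its values were seen, had the smallest adjusted p outside the pancreas list at 8.73e-05. It read −0.04 and −0.21 in the LTKOFstL/L libraries, −0.08 and 0.04 in LDKO and 7.38 and 7.86 in Control, so LTKOFstL/L and LDKO stood close together and both Control libraries stood apart by more than 7 log2 units. Gm10020, named in the same way, read −4.58 and −4.18 in the LTKOFstL/L libraries, −0.39 and 0.39 in LDKO and 0.77 and 0.69 in Control, and here LTKOFstL/L stood apart from both other groups.

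The positions of the called genes were counted. In windows of 10 Mb, chosen after seeing the data and given as a description, chromosome 4 from 140000001 to 150000000 on GRCm38 held 13 called genes of 107 tested (12.1%), against 1.96% of all tested genes outside the pancreas list. Of these 13, 11 fell, among them Fam131c, Ddi2, Zfp992, Zfp993, Angptl7 and Masp2, and Rsc1a1 and Fbxo44 rose. Rsc1a1, which lies within Ddi2 at 141683851 to 141685599, averaged 7.93 ± 0.11 (SD, n = 2) in LTKOFstL/L and was listed at the floor in all 4 other libraries. Ddi2 read −1.18 and −1.33 in the LTKOFstL/L libraries, 0.00 and 0.50 in LDKO and 0.00 and 0.24 in Control and fell by 1.37 ± 0.20 (SE, adjusted p = 0.0239). Reads could be shared between Rsc1a1 and Ddi2, so the rise and the fall may not be separate changes. The next windows were chromosome 7 up to 10000000, with 8 of 86 (9.3%), and chromosome 9 from 100000001 to 110000000, which holds Cish and Rab6b, with 8 of 145 (5.52%). Within 10 Mb of the deleted genes 2 of 61 tested genes were called around Fst, 2 of 149 around Irs1 and 2 of 99 around Irs2. The strain background and the flanks of the floxed alleles are not stated in the labels or files, and their part in the pattern was not tested.

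The authors' deposited table for this comparison lists 2176 genes, 1031 higher and 1145 lower in LTKOFstL/L, each with at least a 2-fold change and a corrected p of at most 0.0499 from their AC test. Of these 1285 were among the genes tested here and 305 passed here, which is 14.0% of the authors' list. The same 305 genes are 83.6% of the 365 called here, and they are all of those called here with at least a 2-fold change.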

How the data were processed

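RNA of skeletal muscle was extracted with TRI Reagent and made into libraries with a SMARTer mRNA kit, per the labels' protocols. Per the submitters' processing notes the genome build was mm10. Each of the aligner, counter, strand setting and normalization is not given in the sources used here. In the deposited table are log2 values of 53342 genes. Judging by these deposited values, the authors scaled read values per library, raised them to a floor at a scaled value of 1, took log2 and centred each gene on its median over the 6 libraries. The largest absolute gene median is 9.54e-07. The authors' deposited list of changed genes gives AC test p-values and corrected p-values, per the file headers, and served only to count shared genes.

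The log2 level of a gene was recovered exactly where 2 or more libraries sit at the floor and otherwise bracketed from the rounding of the stored numbers, and the lower end of the bracket was used. The 16835 genes that reached a level of 4 (16 scaled units) in 2 or more libraries were tested, and 16813 of them matched GENCODE M21 for coordinates. The fit used limma 3.58.1 (R 4.3.3) with a mean for each genotype over the 6 libraries and 3 residual degrees of freedom. Robust empirical Bayes moderated the variances, with its own prior in each of 3 strata set by a gene's lowest level (under 4, 4 to 8, 8 or more). Two-sided p-values were adjusted by Benjamini and Hochberg's method across the tested genes. In the lowest stratum the standard error rests mostly on a spread pooled over genes. The scripts were tested on simulated data.

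The comparison and the 42 gene lists were chosen with earlier results of these data known. The rule names Irs1, Irs2 and Fst, the 12 largest rises and 12 largest falls that pass with and without the pancreas list and have no group at the floor and no clone name, up to 6 called members per list, and the 2 with the smallest adjusted p where fewer than 2 passed. Other members are given with values as context, and a few genes that the rule names are not reported here. Same-numbered libraries were not paired.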

Additional observations from a re-analysis of the deposited data

How the results depend on the processing

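No setting tried turned the larger side of a count, except that the spline trend called more genes higher than lower. No named gene turned direction either, but for the called genes this was largely fixed in advance. The choices of prior, block and tested genes leave a change as it is. In called genes the groups did not overlap, so leaving out 1 library cannot turn the sign. The reported fit called 365 genes, 147 higher and 218 lower. Counts that moved by over 1.5 times were as follows. A fit of the 4 compared libraries alone called 641 (273 higher, 368 lower). A threshold of 0.1 called 643 (275 higher, 368 lower). A single prior for all genes called 43 (14 higher, 29 lower), and no level filter called 93 (45 higher, 48 lower). Leaving out 1 library gave 71 to 641 called, 11 to 273 higher and 51 to 368 lower. Without Control 1 there were 71, without Control 2 180, without LTKOFstL/L 1 71, without LTKOFstL/L 2 84, and without either LDKO library 641, since the lone LDKO library then adds nothing to the spread. With both Control 1 and the pancreas list left out, a setting chosen after seeing the data, 16 genes passed (3 higher, 13 lower), among them Cish, Slc39a7, Trim63, Acot1 and Aarsd1. Leaving out the pancreas list called 293, and leaving out Klk1, Pdia2 and Derl3 as well, also chosen after seeing the data, called 290. A spline trend of the prior called 350 (197 higher, 153 lower), and the floor raised to a log2 level of 4 called 299 (128 higher, 171 lower). Of 76 named genes that passed, 10 still passed under the single prior, 24 without the level filter, 49 with the spline trend, 63 with the raised floor, 76 after re-centring and 24 without Control 1. A fit with the replicate block called 273 (98 higher, 175 lower), with 65 of the 76 kept. The reported fit did not pair libraries by replicate number, and whether same-numbered libraries share a batch is not settled. The deviations of replicate 1 correlated at −0.05 between LTKOFstL/L and Control, −0.19 between LTKOFstL/L and LDKO and 0.21 between Control and LDKO. The cause of these shifts was not tested beyond the smaller number of libraries or genes that a setting leaves. With 2 libraries a group and no known depth, small changes of weakly expressed genes were not detectable.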
